A study of Mus musculus with 7 samples.

Results

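Among the genes measured in these livers, 10 serve the urea cycle and the release of ammonia from amino acids in periportal hepatocytes. They were chosen by name (Cps1, Otc, Ass1, Asl, Arg1, Nags, Slc25a15, Gls2, Hal and Sds), and all 10 had a row among the 14889 genes of the deposited table and passed the count filter that left 13693 genes for testing. The livers came from ApoE-/- mice of the C57BL/6 strain, 4 months old, kept on a Western diet over 3 months. Of these mice 3 received PX-478 at 40 mg/kg and 4 received saline, both by intraperitoneal injection on a schedule given as bi-weekly. The compound PX-478 was developed to block HIF-1α, a transcription factor that accumulates when oxygen is low. Both groups lack apolipoprotein E, which clears remnant lipoproteins, and both ate the Western diet, so no group on another diet or genotype was compared here. The question put to the data was how the liver transcriptome under PX-478 compares with that under saline.

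The urea cycle turns ammonia, which is toxic, into urea, and it runs mainly in hepatocytes near the portal vein. Its first steps lie in the mitochondrion and its later steps in the cytosol, with a carrier that moves ornithine and citrulline between them. The same periportal cells hold enzymes that free ammonia from glutamine, histidine and serine. Liver expression of several of these genes is known to respond to glucagon, glucocorticoids and dietary protein.

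None of the 10 genes passed the test between PX-478 and saline livers, in edgeR's quasi-likelihood test with p-values adjusted over all genes tested, and DESeq2 and limma-voom likewise called 0 of them. Over all genes tested the same threshold of 0.05 called 1 gene, 0.00730%, which was Cfd, the complement protease adipsin (log2 fold change -5.89, adjusted p = 0.000662 in edgeR). At an unadjusted p under 0.05 there was 1 member, Asl, with a higher level in PX-478, where 6.97% of all genes tested had such a p, 3.48% higher and 3.48% lower. The fitted log2 fold changes ran from -0.30 for Slc25a15 to 0.60 for Asl, with 6 above and 4 below 0 (9 above 0 when scaled by total count, which moves the median of all genes to 0.15) and a median of 0.16, against a median of -0.00 over all genes tested. Their median size regardless of sign was 0.21, against 0.25 over all genes tested and 0.20 over the 2385 of them with a mean log2 CPM above 5.5. All 10 had overlapping ranges in both groups, while 8.59% of all genes tested did not overlap. The 5 mitochondrial members had a median log2 fold change of 0.14 and the 5 cytosolic members one of 0.17.

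**Figure D1:**
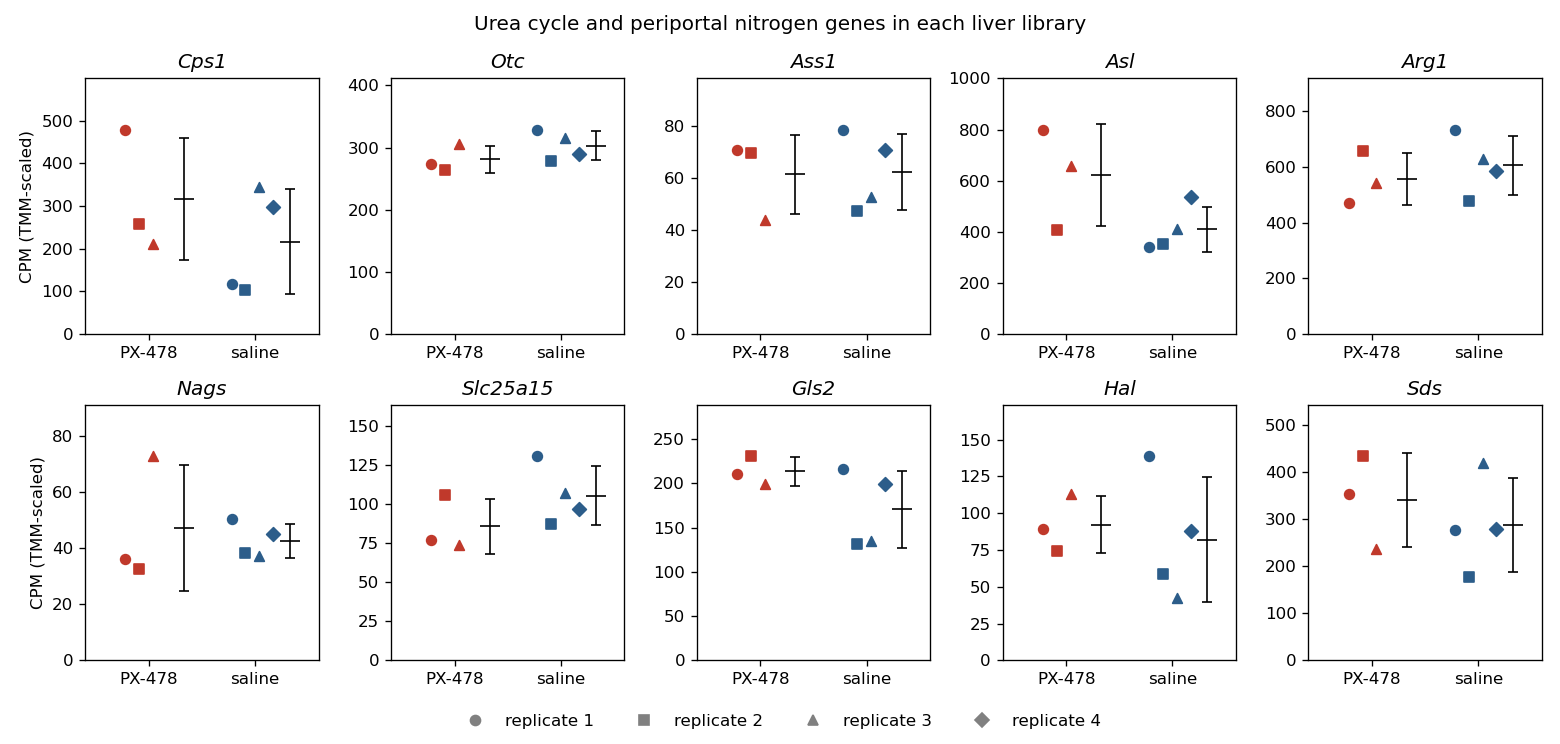
Level of each of the 10 genes in each library, in TMM-scaled CPM, with PX-478 to the left of saline. Symbols are replicate numbers and the bar beside each group is mean ± SD. In every panel the ranges of the groups overlap, and Otc stays within 264 to 329 CPM while Cps1 spans 104 to 479.6 CPM.

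The libraries held 10285776 to 17257304 counted reads, and the members had between 429 and 11483 reads in a library. The labels number the samples of each group but do not say which were housed, extracted or sequenced together, and the p-values measure only the spread between these samples. Levels below are CPM, the usual depth-normalised read count, after TMM scaling, which corrects library totals for differences in composition. PX-478 replicate 2 stood apart in composition, with 22.4% of its reads from mitochondrially encoded genes against 27.1% to 36.7% in the other 6 libraries, and had a scaling factor of 1.29 against 0.888 to 1.05. The hepatocyte identity of the tissue was plain from Alb, albumin, at 18836 ± 3232 CPM in PX-478 and 23548 ± 3103 CPM in saline (SD, n = 3 and n = 4) (log2 fold change -0.32, 95% interval -0.83 to 0.18). All 8 hepatocyte markers examined had lower means in PX-478, with 0 past the threshold and 1 at an unadjusted p under 0.05. Their summed level was 35181 to 45105 CPM in PX-478 and 40196 to 57155 CPM in saline. All 9 macrophage markers had lower means, with 3 at an unadjusted p under 0.05 in edgeR. DESeq2 called 2 of them (Cd68 and Lyz2), where over all 13693 genes tested it called 46 higher and 37 lower. The macrophage sums were 272 to 389 CPM in PX-478 and 282 to 589.8 CPM in saline. The 7 endothelial markers, 5 with higher means, summed to 151 to 180.1 CPM in PX-478 and 106 to 156 CPM in saline, and the 8 stellate cell markers, 7 with higher means, to 166 to 354 CPM in PX-478 and 190.1 to 223 CPM in saline. At an unadjusted p under 0.05 in edgeR, 2 endothelial markers (Kdr and Oit3) and 1 stellate cell marker (Rgs5) were higher in PX-478. Of all genes tested, 3.48% had such a p with a higher and 3.48% with a lower level. Of the 2 endothelial markers with lower means, Pecam1 (unadjusted p = 0.0526 in edgeR) did not overlap between the groups and Cdh5 did. Pecam1 stood at 9.66 to 10.3 CPM in PX-478 and 12.7 to 16.9 CPM in saline. The groups also did not overlap for Oit3 and Rgs5, both higher in PX-478. Nor did they for 2 hepatocyte markers (Ttr and Apob) and 3 macrophage markers (Vsig4, Cd68 and Lyz2), all lower in PX-478. Over all genes tested, 4.30% did not overlap with higher and 4.29% with lower levels. Rgs5 had only 0.260 to 0.521 CPM in saline livers, where 3 reads amount to 0.188 to 0.260 CPM. In whole liver, fewer cells of a type and less RNA per cell cannot be told apart, and the part of these markers in the values of the members was not tested.

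Sequences upstream of the transcription start were available from RefSeq (GRCm38.p6) for 5 of the 10 members, in 6 windows of 250 bases, since Slc25a15 has a further start. Each was searched on both strands for short motifs of factors that bear on this pathway or on the drug. These were the cAMP response element core TGACG, the C/EBP core GCAAT, the glucocorticoid receptor core TGTTCT, the nuclear receptor core AGGTCA, the hypoxia element core ACGTG and the TATA box TATAAA. The hypoxia core is shown first because PX-478 is aimed at HIF-1α. As ACGTG, the only form searched for, this core was found in the windows of Ass1 and of the downstream start of Slc25a15. Each time it was the palindrome CACGTG, which counts as a match on either strand and is also the core of an E-box. Other forms of the hypoxia element were not searched for in any window. Of 32851 promoter windows of this length 16.6% held ACGTG and 6.02% held CACGTG. The following 30 bases around the palindrome, in capitals, lie at chr2:31470222-31470251 on the plus strand for Ass1 and at chr8:22398337-22398366 on the minus strand for Slc25a15.
Ass1: cgcgcccgtcccCACGTGtcccaggttcct
Slc25a15: cgccctgccgcaCACGTGccgcggctccgg

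The palindrome starts at base -36 in Ass1 and at base -77 in Slc25a15, counted back from the start. Hal and Nags are shown whole, because Hal had the widest spread among saline livers of the members with a window and Nags the widest among PX-478 livers. Hal lies at chr10:93488518-93488767 and Nags at chr11:102145263-102145512, both on the plus strand, with every match to a searched motif in capitals.
Hal: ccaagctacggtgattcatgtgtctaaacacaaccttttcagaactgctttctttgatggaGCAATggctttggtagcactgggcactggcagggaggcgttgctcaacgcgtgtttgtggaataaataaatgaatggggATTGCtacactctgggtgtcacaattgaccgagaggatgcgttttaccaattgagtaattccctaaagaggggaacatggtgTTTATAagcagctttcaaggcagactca
Nags: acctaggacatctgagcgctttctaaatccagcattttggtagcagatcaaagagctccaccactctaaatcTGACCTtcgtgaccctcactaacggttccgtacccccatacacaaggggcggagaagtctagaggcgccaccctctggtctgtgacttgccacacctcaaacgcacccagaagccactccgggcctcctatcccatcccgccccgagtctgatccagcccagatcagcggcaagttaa

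Hal held the C/EBP core at 2 places and the TATA box, on the reverse strand, at base -28. The C/EBP core, found in 23.1% of all windows, also occurred in Ass1 and in the downstream Slc25a15 window, and the TATA box occurred in 12.4% of all windows. Nags held the nuclear receptor core, on the reverse strand, which 14% of all windows held. The cAMP response element core (17.8% of all windows) and the glucocorticoid receptor core (16.1%) were in none of the 6 windows, and the Otc window held none of the 6 motifs. These matches describe letters only. Ass1 and Slc25a15, which share the palindrome, had log2 fold changes of -0.02 and -0.30.

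The pathway begins with Nags, which makes N-acetylglutamate, the obligate activator of carbamoyl phosphate synthetase. Nags (Entrez Gene 217214, chromosome 11 from 102145513 to 102149528 in GRCm38) stood at 36.2, 32.5 and 73.0 CPM in PX-478 replicates 1, 2 and 3, against 50.3, 38.4, 37.3 and 45.0 CPM in saline replicates 1 to 4. A single PX-478 library lay above all saline libraries, and the other 2 lay below all of them. For Nags the fit gave 0.14 on the log2 scale with an SE of 0.26 and a 95% interval from -0.43 to 0.72, and without PX-478 replicate 3 it was -0.32. A gene on the opposite strand, Gm11586, covers 21.8% of the exon bases of Nags, and whether counting used strand is not stated in these sources.

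Cps1, which joins ammonia and bicarbonate into carbamoyl phosphate in the mitochondrial matrix, varied most of all members. Cps1 (Entrez Gene 227231, chromosome 1 from 67122426 to 67231267) stood at 479.6, 259 and 210.0 CPM in PX-478 livers, against 118, 104, 345 and 298 CPM in saline livers. The saline livers themselves split, with replicates 1 and 2 low and replicates 3 and 4 high, and only PX-478 replicate 1 lay above all of them. The highest of the 7 libraries was 4.60 times the lowest. The log2 fold change of 0.55 had an SE of 0.48 and a 95% interval from -0.54 to 1.63 (adjusted p = 0.852 in edgeR), and it was 0.12 without PX-478 replicate 1, 0.32 without saline replicate 2 and 0.87 without saline replicate 3.

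Otc, the X-linked enzyme that makes citrulline from carbamoyl phosphate and ornithine in the same compartment, was the steadiest member. Otc (Entrez Gene 18416, chromosome X from 10252230 to 10321024) stood at 273, 264 and 306 CPM in PX-478 livers, against 329, 279, 315 and 289.9 CPM in saline livers. All 7 values lay close together, and the coefficient of variation was 7.88% in PX-478 and 7.57% in saline. Over the 2385 tested genes with a mean log2 CPM above 5.5 the median coefficient of variation in saline was 16.8%. The log2 fold change was -0.11 with a 95% interval from -0.49 to 0.27, and 0.03 when scaled by total count. Expressed per kilobase of exon, Cps1 stood to Otc as 1.34, 0.750 and 0.524 in PX-478 livers and as 0.273, 0.285, 0.837 and 0.786 in saline livers. The ratio overlapped between the groups, with the highest value in PX-478 replicate 1 and the lowest in saline replicate 1.

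Slc25a15, the mitochondrial carrier that exchanges ornithine for citrulline, had the most negative fitted value. Slc25a15 (Entrez Gene 18408, chromosome 8 from 22375550 to 22398621) stood at 77.2, 106 and 74.1 CPM in PX-478 livers, against 131, 87.3, 107 and 96.7 CPM in saline livers. PX-478 replicates 1 and 3 lay below all saline livers, and PX-478 replicate 2 lay among them. Its fitted log2 difference of -0.30 had an SE of 0.21 and a 95% interval from -0.74 to 0.14, with an adjusted p = 0.802 in edgeR. Without PX-478 replicate 2 it was -0.48, at an unadjusted p of 0.0475 and an adjusted p of 0.582 in edgeR.

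Of the cytosolic enzymes, Ass1 condenses citrulline with aspartate. Ass1 (Entrez Gene 11898, chromosome 2 from 31470270 to 31520670) stood at 70.8, 69.7 and 43.9 CPM in PX-478 livers, against 78.7, 47.4, 52.8 and 70.7 CPM in saline livers. The groups lay on top of each other, at a mean of 61.5 ± 15.3 CPM in PX-478 and 62.4 ± 14.7 CPM in saline (SD, n = 3 and n = 4). Fitting gave a log2 fold change of -0.02 with a 95% interval from -0.53 to 0.48, and 0.17 when scaled by total count or without PX-478 replicate 3.

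Asl, which splits argininosuccinate into arginine and fumarate, came closest to a difference. Asl (Entrez Gene 109900, chromosome 5 from 130011258 to 130024381) stood at 800.0, 408 and 657 CPM in PX-478 livers, against 342, 351, 410.2 and 534 CPM in saline livers. PX-478 replicates 1 and 3 lay above every saline liver, and PX-478 replicate 2 lay within the saline range. The fitted level was 1.52-fold higher in PX-478, a log2 fold change of 0.60 with an SE of 0.25 and a 95% interval from 0.06 to 1.15, with an unadjusted p of 0.0321 and an adjusted p of 0.683 in edgeR. Without PX-478 replicate 2 it was 0.83 (adjusted p = 0.352 in edgeR), and without PX-478 replicate 1 it was 0.38 with an unadjusted p of 0.181. Leaving out any 1 of the 7 libraries gave adjusted p-values from 0.352 to 1 in edgeR. The library with the lowest Asl in PX-478 was also the library with the lowest mitochondrial share of reads, 22.4% in replicate 2 against 36.7% and 32.6% in replicates 1 and 3, and the part of this share in the Asl values was not tested. With the mitochondrially encoded genes left out before scaling, the number of members at an unadjusted p under 0.05 was again 1.

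Asl follows Ass1 directly, and the ratio of their levels per kilobase was 6.42, 3.33 and 8.52 in PX-478 livers, against 2.47, 4.22, 4.42 and 4.29 in saline livers. The ratio lay above all saline livers in PX-478 replicates 1 and 3 and below 3 of the 4 saline livers in PX-478 replicate 2.

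Arg1, the arginase that releases urea and returns ornithine to the cycle, had the highest level of the members per kilobase of exon in both groups. Arg1 (Entrez Gene 11846, chromosome 10 from 24915207 to 24927470) stood at 470.1, 657 and 544 CPM in PX-478 livers, against 735, 479, 628 and 586 CPM in saline livers. The PX-478 values lay within or just below the saline range. For Arg1 the fit gave -0.12 on the log2 scale with a 95% interval from -0.58 to 0.33, and 0.06 when scaled by total count. Arg2, its mitochondrial counterpart outside the liver, had 0.348, 0.529 and 0 CPM in PX-478 livers, against 0.912, 1.13, 0 and 0.188 CPM in saline livers, and 3 reads in a library amount to between 0.188 and 0.260 CPM.

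**Figure D2:**
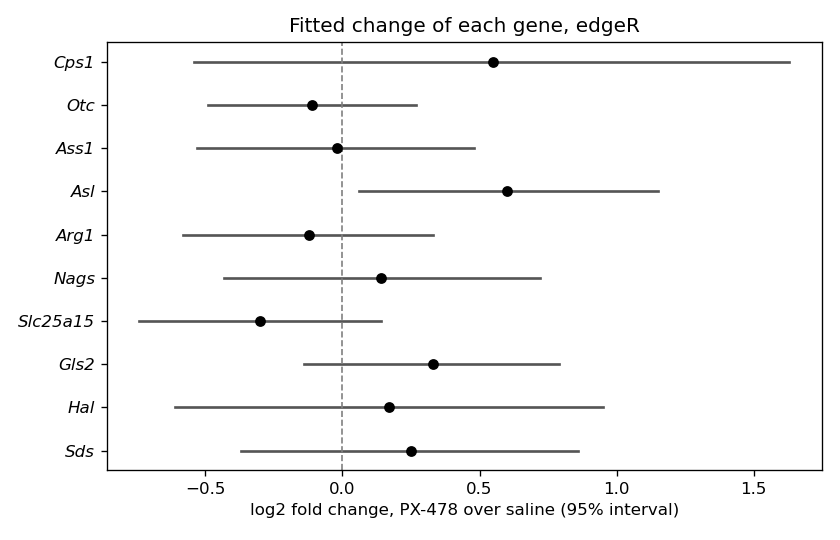
Fitted log2 ratio of PX-478 to saline for each of the 10 genes (points) with its 95% interval (lines), from edgeR's quasi-likelihood fit over all genes. The interval of Asl, 0.06 to 1.15, lies above 0 before adjustment, and those of the other 9 genes include 0.

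Among the enzymes that supply ammonia, Gls2 is the liver glutaminase, whose product feeds carbamoyl phosphate synthesis in the same mitochondria. Gls2 (Entrez Gene 216456, chromosome 10 from 128194635 to 128210004) stood at 211, 231 and 199 CPM in PX-478 livers, against 216, 132, 135 and 199 CPM in saline livers. The PX-478 livers were tightly grouped at the level of saline replicates 1 and 4, while saline replicates 2 and 3 were lower. With a log2 fold change of 0.33, an SE of 0.22 and a 95% interval from -0.14 to 0.79, Gls2 had an adjusted p = 0.795 in edgeR. Its exons share 1.24% of their bases with Spryd4 on the opposite strand.

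Hal, histidine ammonia-lyase, takes the first step of histidine breakdown and frees ammonia. Hal (Entrez Gene 15109, chromosome 10 from 93488768 to 93516761) stood at 89.2, 74.4 and 113 CPM in PX-478 livers, against 139, 58.6, 42.5 and 87.8 CPM in saline livers. All 3 PX-478 livers lay within the saline range, which spanned a factor of 3.28. For Hal the fit gave 0.17 on the log2 scale with a 95% interval from -0.61 to 0.95, and it was 0.55 without saline replicate 1 and -0.05 without saline replicate 3. The other enzymes of the path did not pass the test either, with a log2 fold change of 0.03 for Uroc1 (urocanase, SE 0.20), 0.06 for Amdhd1 (SE 0.28) and 0.18 for Ftcd (SE 0.21).

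Sds, serine dehydratase, turns serine into pyruvate and ammonia and is known to be induced by glucagon and by protein-rich food. Sds (Entrez Gene 231691, chromosome 5 from 120476547 to 120483932) stood at 353, 435 and 236 CPM in PX-478 livers, against 277, 177, 419 and 279 CPM in saline livers. The groups overlapped widely, with PX-478 replicate 2 highest and saline replicate 2 lowest. For Sds the fit gave 0.25 on the log2 scale with an SE of 0.28 and a 95% interval from -0.37 to 0.86, and 0.03 without PX-478 replicate 2. Plbd2 on the opposite strand shares 28% of the exon bases of Sds, and Gm15690, also on the opposite strand, shares 10.9%. Before TMM scaling Plbd2 had 61.7 to 78 CPM in PX-478 and 58 to 68.7 in saline.

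**Figure D3:**
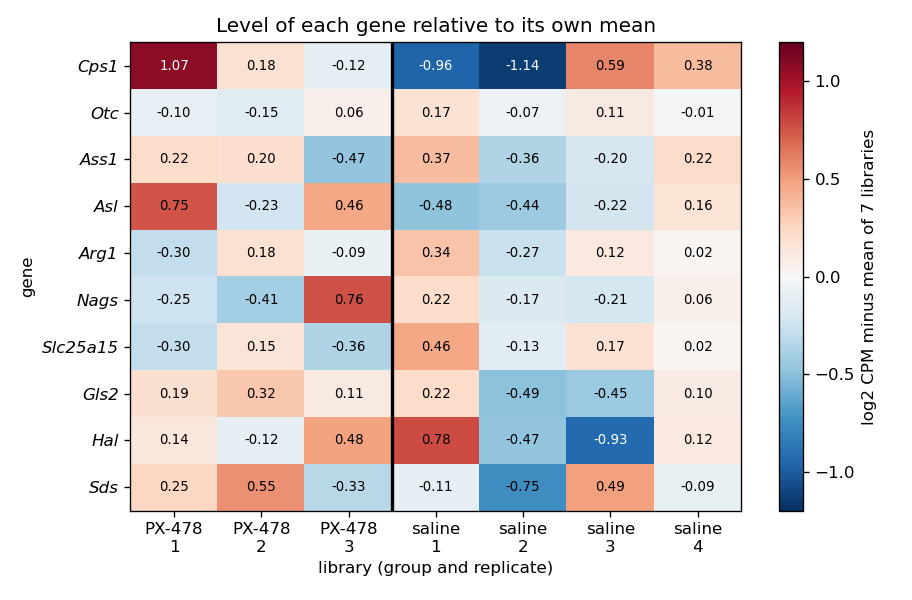
Log2 CPM of each gene in each library minus the gene's own mean over the 7 libraries, with PX-478 libraries left of the black line and saline libraries right of it. Red is above the gene's mean and blue below. Saline replicate 2 is below the mean for all 10 genes, and no column of PX-478 has the same sign throughout.

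Summed over the 10 genes, the groups also overlapped. The summed level was 2859.8, 2536 and 2457 CPM in PX-478 livers, against 2415, 1754, 2493 and 2486 CPM in saline livers. Saline replicate 2 had the lowest sum and lay below its own mean for all 10 genes, from -0.07 on the log2 scale for Otc to -1.14 for Cps1. PX-478 replicate 1 had the highest sum, through Cps1 at 1.07 and Asl at 0.75 above their means, while Arg1 and Slc25a15 were each 0.30 below theirs in that library. Saline replicate 1 had the highest Otc, Ass1, Arg1, Slc25a15 and Hal of all libraries but the lowest Asl. The coefficient of variation within saline ran from 7.57% for Otc to 57.0% for Cps1 with a median of 22.6%, and in PX-478 from 7.53% for Gls2 to 47.4% for Nags.

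Per kilobase of annotated exon, which allows levels to be compared between genes, Arg1 led in both groups at 377 ± 63.8 CPM per kilobase in PX-478 and 411 ± 71.7 in saline. Sds followed at 265 ± 77.5 and Asl at 208 ± 66.5 in PX-478, against 224 ± 77.2 for Sds and 137 ± 29.6 for Asl in saline. In the middle were Gls2 at 83.0 ± 6.25, Otc at 66.2 ± 5.22 and Cps1 at 57.0 ± 25.8 in PX-478, against 66.2 ± 16.8, 71.5 ± 5.41 and 38.9 ± 22.2 for the same genes in saline. Ass1 stood at 36.3 ± 9.01 in PX-478 and 36.8 ± 8.69 in saline, and Slc25a15 at 25.0 ± 5.06 in PX-478 and 30.8 ± 5.47 in saline. The lowest were Nags at 23.3 ± 11.0 in PX-478 and 21.1 ± 2.99 in saline, and Hal at 17.4 ± 3.70 in PX-478 and 15.4 ± 7.99 in saline (all SD, n = 3 for PX-478 and n = 4 for saline). Only Gls2 and Otc changed places between the groups. In PX-478 livers neighbours in this order overlapped except Asl over Gls2 and Gls2 over Otc. In saline livers they overlapped except Asl over Otc and Slc25a15 over Nags. The lengths are those of merged exons in GENCODE M21, and the sources do not state which annotation the counts used.

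**Figure D4:**
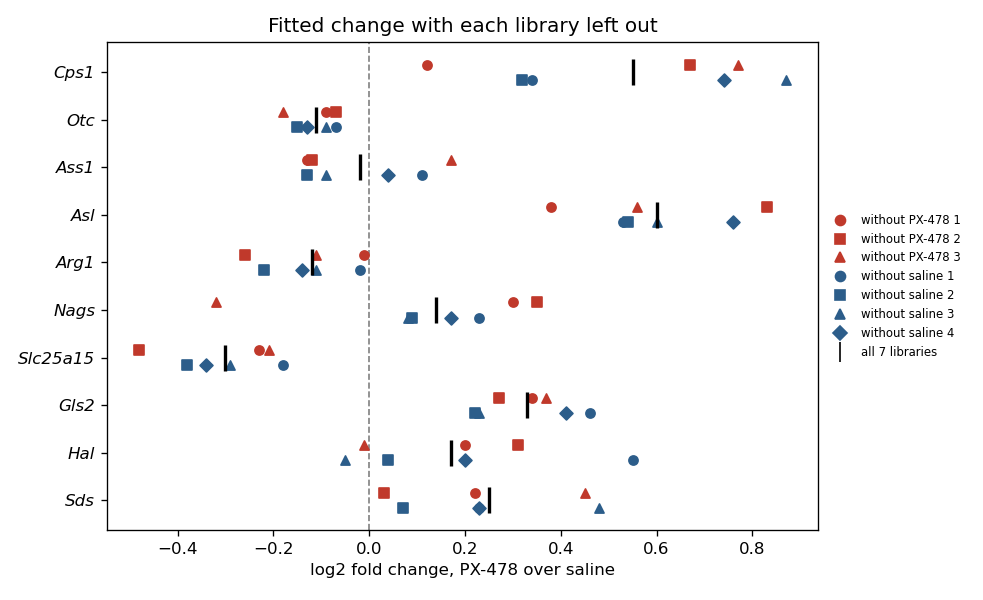
Fitted log2 ratio of PX-478 to saline for each gene with all 7 libraries (black bars) and with each library left out in turn (symbols, red where a PX-478 library and blue where a saline library was left out). The signs of Asl, Cps1, Gls2, Sds, Slc25a15, Otc and Arg1 hold in all 7 cases (total count scaling, not drawn, turned those of Otc and Arg1), while those of Ass1, Hal and Nags turn in at least 1.

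In the authors' deposited table the log2 fold changes of the members were nearly the same as here, with Asl at 0.61, Cps1 at 0.55 and Slc25a15 at -0.30. The p-values of the authors' deposited table are not adjusted and were 0.0031 for Asl, 0.0316 for Gls2 and 0.0319 for Slc25a15. Those of the other members ran from 0.119 for Cps1 to 0.899 for Ass1. The unadjusted p-values in edgeR here were 0.0321 for Asl, 0.155 for Gls2 and 0.167 for Slc25a15. The share of all genes with such a p in the authors' test was not computed, so no background stands beside it. The way the 2 count columns of each sample entered that test is not stated.

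The genes whose level followed the core of the cycle most closely over the 7 libraries were sought among all genes tested. The measure of likeness was the root mean square distance, on the log2 scale, between a gene's level centred on its mean and the mean centred profile of Cps1, Otc, Ass1, Asl, Arg1 and Slc25a15. Ppp1cc, a catalytic subunit of protein phosphatase 1, was closest at 0.0837, followed by Birc6 at 0.0962, Huwe1 at 0.104, Zbtb5 at 0.106 and Kdm4c at 0.106, where the median gene was at 0.417. The profile itself was shallow, with a root mean square of 0.188, which is also the distance at which a gene without any variation would lie. Of the members Otc was nearest at 0.218 and Cps1 farthest at 0.594, so every member lay farther from the profile than such a flat gene. Closeness to this mean therefore does not show that a gene follows the members.

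Genes that support the cycle or carry nitrogen to it were taken from a list. Of 23 such genes 21 were tested, 13 with a higher and 8 with a lower level in PX-478, and their median log2 fold change of 0.16 equalled that of the members. None passed the threshold in edgeR, DESeq2 or limma-voom. At an unadjusted p under 0.05 in edgeR there were 3 with a higher and 1 with a lower level, against 3.48% of all genes tested in each direction. The groups did not overlap for 2 of the 21 with higher and 1 with lower levels, against 4.30% and 4.29% of all genes tested. Slc25a13, the aspartate carrier citrin that supplies Ass1 with aspartate, stood at 103, 80.2 and 82.2 CPM in PX-478 livers, against 65.3, 50.1, 57.4 and 72.0 CPM in saline livers (log2 fold change 0.53, SE 0.19, adjusted p = 0.602 in edgeR). Prodh2, hydroxyproline dehydrogenase, stood at 603, 693 and 639 CPM in PX-478 livers, against 470.1, 488, 468 and 387 CPM in saline livers (log2 fold change 0.51, SE 0.18). Every PX-478 liver lay above every saline liver for both genes.

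Glud1, glutamate dehydrogenase, which frees ammonia from glutamate beside Cps1, went the other way. It stood at 250.4, 315 and 309.8 CPM in PX-478 livers, against 449.9, 388, 459 and 379 CPM in saline livers, without overlap (log2 fold change -0.52, SE 0.19, 95% interval -0.93 to -0.11, adjusted p = 0.602 in edgeR). In the list of histidine, serine, threonine and glycine breakdown 13 genes were tested, 8 higher and 5 lower, with a median of 0.02. None of them had an unadjusted p under 0.05 in edgeR, and DESeq2 and limma-voom called 0. The smallest p belonged to Gldc, the glycine cleavage decarboxylase, at -0.43 (SE 0.27) and to Shmt1, the cytosolic serine hydroxymethyltransferase, at 0.45 (SE 0.31).

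Oat, ornithine aminotransferase, which draws ornithine away from the cycle in pericentral cells, had the smallest p of the genes that use arginine and ornithine. It stood at 217, 271 and 304 CPM in PX-478 livers, against values from 417 to 661 CPM in the 4 saline livers, and the groups did not overlap. Its log2 fold change of -1.06 (SE 0.23) missed the threshold in edgeR (adjusted p = 0.245) and in limma-voom (adjusted p = 0.175). Oat passed in DESeq2 (adjusted p = 0.00253), which called 46 genes higher and 37 lower over all genes tested. The other alternatives gave Oat adjusted p-values from 0.158 to 0.909. The other 12 tested genes of that list gave 6 higher and 6 lower, and the list as a whole had a median of -0.06. Ddah2, which breaks down methylated arginines, gave 0.58 on the log2 scale (SE 0.31) and Ddah1, its relative, -0.41 (SE 0.29), and for Ddah2 the groups did not overlap. Over all genes tested, 4.30% did not overlap with higher and 4.29% with lower levels.

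Other genes of the periportal zone divided evenly, with 8 of 16 higher, 8 lower, and a median of -0.01 on the log2 scale. None passed in edgeR, DESeq2 or limma-voom. At an unadjusted p under 0.05 in edgeR there was 1 of the 16, Etnppl, against 6.97% of all genes tested. Etnppl, a phosphoethanolamine lyase, stood at 36.2 ± 12.7 CPM in PX-478 and 20.8 ± 9.04 CPM in saline (SD, n = 3 and n = 4), and the groups overlapped. It gave 0.80 on the log2 scale (SE 0.35), and 0.49 without PX-478 replicate 1 (unadjusted p = 0.205 in edgeR). Hsd17b6 gave 1.19 on the log2 scale (SE 0.55), with 155, 48.4 and 51.4 CPM in PX-478 livers and 19.7 to 65.6 CPM in the 4 saline livers. Without PX-478 replicate 1, the highest library, it gave 0.43 (unadjusted p = 0.331 in edgeR). In the pericentral zone 14 of 18 genes were lower and 4 higher, with a median of -0.23. None passed in edgeR or limma-voom, and DESeq2 called Oat. At an unadjusted p under 0.05 edgeR gave 3 lower and 1 higher, against 3.48% of all genes tested in each direction. The groups did not overlap for 3 of the 18 with lower levels (Oat, Lect2 and Rgn) and 0 with higher, against 4.29% and 4.30% of all genes tested. Lect2, a secreted hepatokine gene, gave -0.84 on the log2 scale (SE 0.22), and Cyp27a1, a sterol hydroxylase, gave 0.88 (SE 0.30). Glul, glutamine synthetase, the pericentral enzyme that takes up ammonia escaping the cycle, is named here after its values were seen. It stood at 202, 136 and 375 CPM in PX-478 livers, against 362, 312, 277 and 296 CPM in saline livers, with a log2 fold change of -0.39 (SE 0.29). The difference between the zones was not tested.

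**Figure D5:**
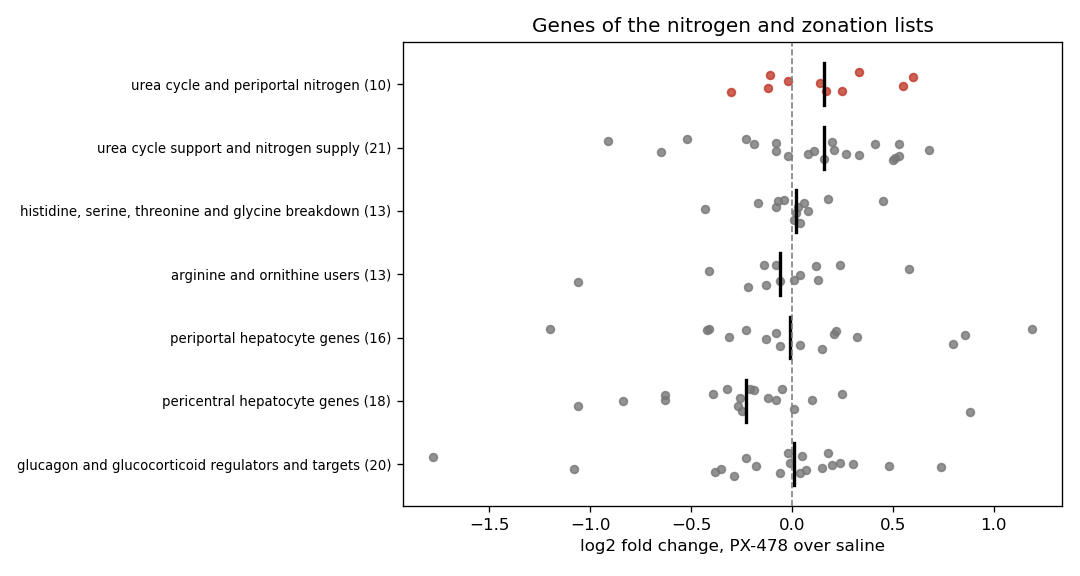
Fitted log2 ratio of PX-478 to saline for each tested gene (points) of the 10 genes (red) and of 6 related lists (grey), with the median of each list as a black bar and the number of tested genes in brackets. The members and the support genes have a median of 0.16 and the pericentral genes one of -0.23.

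Regulators and targets of glucagon and glucocorticoid signalling, the hormones known to set urea cycle expression, were 10 higher and 10 lower of 20 tested, with a median log2 fold change of 0.01. None passed in edgeR, DESeq2 or limma-voom. At an unadjusted p under 0.05 in edgeR there was 1 of the 20, against 6.97% of all genes tested. This was Foxo1, a transcription factor of the fasting response, at 34.2 ± 0.992 CPM in PX-478 and 24.5 ± 2.22 CPM in saline (SD, n = 3 and n = 4). Its log2 fold change was 0.48 (SE 0.18, adjusted p = 0.602 in edgeR). The groups did not overlap for Foxo1, and 4.30% of all genes tested did not overlap with higher levels. The glucagon receptor gene Gcgr had a log2 fold change of 0.30 (SE 0.21). G6pc, the catalytic subunit of glucose 6-phosphatase, had -1.78 (SE 0.78), with 34.2 to 90.0 CPM in PX-478 and 33.5 to 371 CPM in saline.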

How the data were processed

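Liver RNA was sequenced from 7 ApoE-/- mice, 3 given PX-478 and 4 given saline. The authors deposited whole-number read counts per gene, made with featureCounts on build mm10, per the submitters' processing notes, together with log2 fold changes and unadjusted p-values that the authors deposited beside them. The aligner, the annotation and the use of strand are not given in the sources used here. Each sample had 2 count columns, which differed by less than sampling noise (chi-square per gene 0.291 to 0.765, against 49.1 to 145 between libraries of 1 group). Their mean, rounded, was counted as 1 sample. A further 7 columns of averages were not used, and 212 rows had no gene symbol.

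Genes were filtered with filterByExpr, scaled by TMM and tested with edgeR 4.0.16 (robust quasi-likelihood test, Benjamini-Hochberg adjustment over 13693 genes, threshold 0.05) in R 4.3.3. On simulated counts for this comparison, over 13160 genes, 20.8% of 96 genes changed 2-fold and 83.3% of 96 changed 4-fold were called, with 7 unchanged genes called. The changed genes were drawn at random from all genes tested. The alternatives were 3 other scalings, 2 other filters, DESeq2 1.42.0, limma-voom (limma 3.58.1), a non-robust fit, a threshold of 0.1, a replicate block, leaving out mitochondrially encoded genes, each count column alone or their sum, and leaving out each library. All 10 members are named. From each related list the 3 genes with the smallest unadjusted p are named, with any whose groups did not overlap at an unadjusted p under 0.05. The 5 genes closest to the mean profile of the cycle members are named too. Some list genes with no overlap above that p, and genes of the same pathway step as a member, were named after their values were seen. A gene of the periportal list that this rule names is not reported here. The members and lists were chosen with earlier results of these data known. Exon lengths and overlaps are from GENCODE M21 (GRCm38). Gene positions and promoter windows are from RefSeq (GRCm38.p6), and the windows held 5 of the 10 members.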

Additional observations from a re-analysis of the deposited data

How the results depend on the processing

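None of the 10 members passed the threshold under any of the alternatives run. Over all genes, against 0 higher and 1 lower in PX-478, total count scaling gave 4 higher, DESeq2 gave 46 higher and 37 lower, limma-voom gave 0 lower, and a threshold of 0.1 gave 1 higher. Leaving out 1 library at a time gave 0 to 4 higher (4 without PX-478 replicate 2 or saline replicate 4, 2 without PX-478 replicate 3) and 1 to 3 lower (3 without PX-478 replicate 3). The number of members at an unadjusted p under 0.05, 1 with all libraries, was 0 without PX-478 replicate 1 or 3 or saline replicate 1, 2 or 3, and 2 without PX-478 replicate 2.

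Of 200 recomputed member values 189 kept their sign and 11 did not. Total count scaling turned Otc to 0.03, Ass1 to 0.17 and Arg1 to 0.06, and shifted the median of all genes to 0.15. Using the first count column alone turned Ass1 to 0.02. Leaving out 1 library gave Ass1 -0.13 to 0.17 (0.17 without PX-478 replicate 3, 0.11 without saline replicate 1, 0.04 without saline replicate 4), Hal -0.05 to 0.55 (-0.01 without PX-478 replicate 3, -0.05 without saline replicate 3) and Nags -0.32 to 0.35 (-0.32 without PX-478 replicate 3). The cause was not tested.

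No pairing by replicate number was seen over all genes tested: deviations of same-numbered libraries correlated at -0.02, -0.07 and -0.00. A pairing that touched only some genes could not be seen this way. With the replicate block the counts over all genes were 1 higher and 2 lower, Ass1 was 0.04, and G6pc passed the threshold (-2.18, adjusted p = 0.0326 in edgeR). Saline replicate 4 has no PX-478 library of its number, so the block took it out of the group difference. Leaving that library out without a block gave Ass1 0.04 and G6pc -2.14 (adjusted p = 0.125 in edgeR). G6pc was lowest among saline livers in that library, at 33.5 CPM. With 3 and 4 animals, simulated 2-fold changes were called in 20.8% of cases. The changed genes of the simulation were drawn from all genes tested, at any level, so this is not a rate for the members. The fitted differences of the members were all under 2-fold.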
